A study of Homo sapiens with 3 samples.

Results

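The 10 genes described here belong to the BCL2 family, the proteins that decide whether the mitochondrial outer membrane is opened during apoptosis. They are BAX, BAK1, BBC3, PMAIP1, BID, BAD, BIK, BCL2L11, BCL2L1 and MCL1, and they were chosen by name from the 27274 gene names on the arrays. All probes carrying one of these names were used, which gave 14 probes on 32 spots of each array. HepG2 cells, an established human hepatocellular carcinoma line with wild-type p53, were left untreated according to the labels (the study's listing of array values calls the control DMSO), or were treated with etoposide at 10 μM (the low dose) or 100 μM (the high dose). Treatment lasted 30 h in both cases. Etoposide traps topoisomerase II on DNA and so causes double-strand breaks, and the study set a dose used to bring about senescence against one used to trigger apoptosis. Cy3-labeled RNA of each of the 3 conditions was measured on 1 Agilent 1-color array, and all arrays were on 1 slide. The differences below thus lack replicates and carry no p-value.

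In the mitochondrial pathway, BAX and BAK1 are the effectors that form pores in the outer membrane and let cytochrome c out. BCL2L1, which encodes BCL-XL, and MCL1 hold the effectors back. BH3-only proteins start the process, either by blocking these guardians or by engaging the effectors directly. Among the BH3-only genes, BBC3 (PUMA) and PMAIP1 (NOXA) are known transcriptional targets of p53, as is BAX. BID is cut by caspase-8 and then links death receptors to mitochondria, BAD is controlled by phosphorylation, BIK acts largely at the endoplasmic reticulum, and BCL2L11 (BIM) is spliced into several forms. Many of these proteins are regulated after translation, which arrays do not measure.

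Signals are the processed intensity of Feature Extraction, with the background already subtracted. For fold changes, each array was divided by the 75th percentile of its probes, a signal of 514 in control cells, 536 with 10 μM and 432 with 100 μM. Without this step the median over the 15177 genes that were well above background everywhere was −0.17 on the log2 scale with 100 μM compared with control cells, whereas with it the median of the 16889 genes tested was 0.09. The 7 spike-in controls, RNAs added in known amount, differed between these arrays by −0.08 ± 0.03 (SD over the spike-ins) where the percentiles differed by −0.25. The sign of a small difference with 100 μM therefore depended on the scaling, and cases are named below. Errors of folds are the spread between spots of like signal on 1 array (1 SD), and do not include the spread between cultures. A gene was represented by its brightest probe, and a fold needed a signal that the software called well above background in the brighter condition. Such a fold was available for 9 of the 10 members. All 10 hepatocyte marker genes examined were well above background on every array, with a summed signal of 414250 in control cells, 442194 with 10 μM and 453572 with 100 μM. Of 8 leukocyte, endothelial and fibroblast markers, 4, 4 and 5 were well above background in the same order, with summed signals of 1321, 1679 and 2529, and COL1A1, COL1A2 and DCN were not above it on any array. The increase of this sum over control cells was that of CD14 alone, with signals of 521, 1184 and 1847, and without it the sums were 801, 496 and 682. Between the doses, the sum without CD14 was also higher with 100 μM than with 10 μM. PTPRC, PECAM1 and CD3E were lower with 10 μM than in control cells (log2 −1.03, −0.73 and −0.50). With 100 μM the values were 0.41, −0.48 and 0.43 in the same order. PTPRC rests on 1 of its 5 probes, since the others were not well above background on any array. The hepatocyte sums, also unscaled, were dominated by bright genes such as AHSG (179192 in control cells), and single markers went both ways. With 10 μM the log2 fold changes of this list ran from −0.80 (HNF4A, dim) to 0.59 (TTR). With 100 μM they ran from −0.52 (ALB) to 1.11 (TTR), and ALB was also lower with 10 μM (−0.74). The part of the markers of both lists in the results was not tested.

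In RNA from whole cultures, fewer cells with a transcript and less transcript per cell cannot be told apart. Only BAX differed more than 2-fold between the low dose and control cells, and no member did so between the high dose and control cells. Between the doses, only BIK passed this limit. Among all genes, 4.95% of 16699 passed 2-fold in either direction with 10 μM, 10.4% of 16889 with 100 μM and 7.60% of 16732 between the doses, so 1 of 9, 0 of 9 and 1 of 9 members are counts that say little about the family. At 1.5-fold, 4 of 9 members (BAX, BAK1, BBC3 and BIK) were higher with 10 μM than in control cells, where 15.5% of all genes passed in either direction. With median scaling BBC3 (0.58) fell just short. With 100 μM 3 of 9 passed, BAX and BAK1 higher and BIK lower, where 28.2% of all genes passed. This split depended on the scaling. Without scaling and with median scaling no member was higher and BID, BIK and BCL2L11 were lower, and with spike-in scaling only BID and BIK passed, both lower. Between the doses 2 of 9 passed, BIK and BCL2L11, both higher with 10 μM, where 21.8% of all genes passed. Without scaling, with median scaling and with spike-in scaling 5 passed, BAX, BBC3 and BID in addition, whereas the median over the 3 probes of BCL2L11 (0.21) did not pass. With the scaling used here no member reached 3-fold, a limit passed by 1.65%, 3.50% and 2.73% of all genes in the same order, but BIK passed it between the doses under the same 3 other scalings (1.61 to 1.69 on the log2 scale). The median log2 fold change of the 9 members was 0.32 with 10 μM compared with −0.04 over all genes, 0.11 with 100 μM compared with 0.09, and 0.44 for the low dose over the high dose compared with −0.10 (both treated arrays were compared with the same control array). The median of 0.11 with 100 μM was the value of BBC3, which was −0.14 without scaling, so its sign is not read as a direction.

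**Figure D1:**
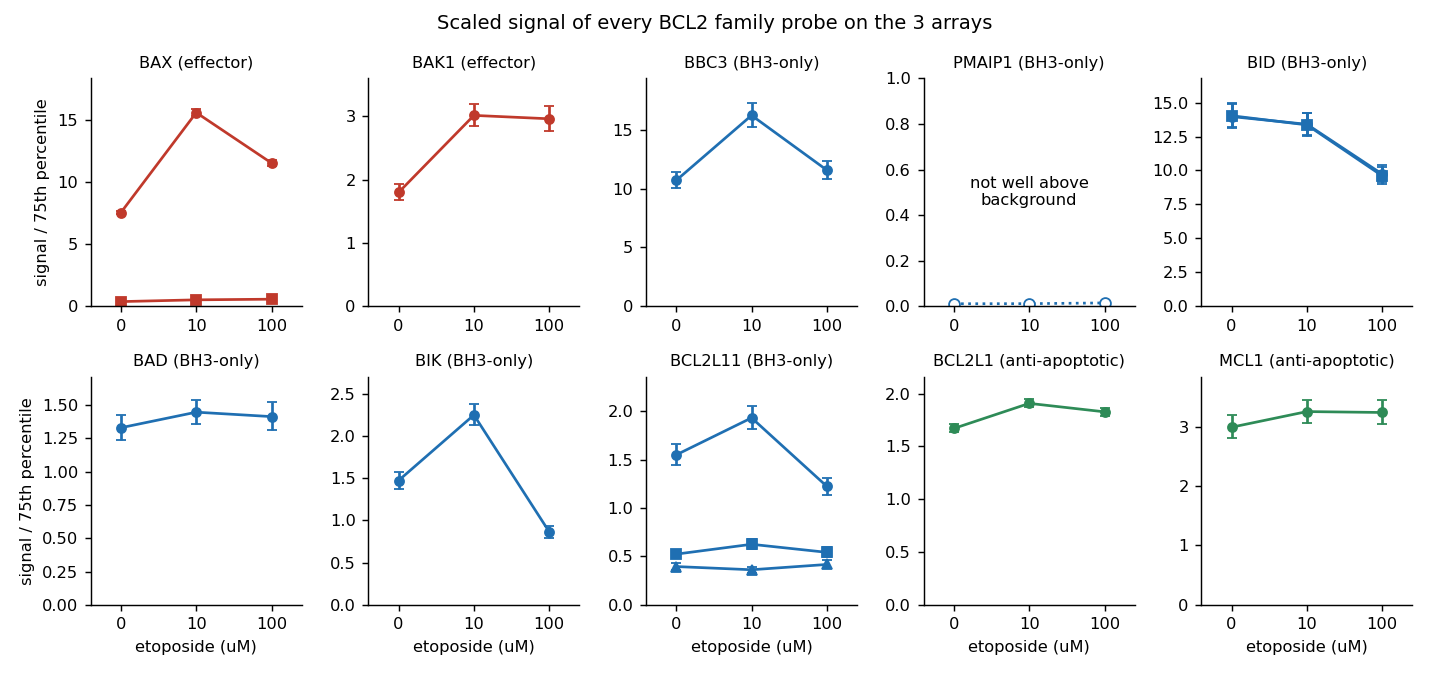
Signal of every probe of the 10 BCL2 family genes in control cells (0) and at 10 and 100 μM etoposide, divided by the 75th percentile of the array (vertical axes start at 0 and differ between panels). Circles, squares and triangles are the probes of a gene from the brightest to the dimmest, bars are 2 SD of the spread between spots, and PMAIP1 (open circles) lay near 0 on all arrays. On this scale the brightest BAX probe, BBC3 and BIK peaked at 10 μM, and the dimmer BAX probe did not. Unscaled, the dimmer BAX probe was also highest at 10 μM (273, and 243 at 100 μM). BAK1 was higher at both doses than in control cells, and BID was lower at 100 μM than in the other conditions.

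The effector BAX was measured by 2 probes that recognise different transcripts and that differed in their response to the low dose. The sequences are shown because the 2 probes lie 450 bases apart on chromosome 19 of hg18 and report different transcript variants. The last 30 bases of each 60-base probe, on the plus strand, read as follows, in the direction of the transcript.
BAX sigma variant and others, chr19:54156746-54156775: tatggcatttttctgggaggggtggggatt
BAX beta variant, chr19:54156296-54156325: gaccctctgaccctagctctttcctttttt
By the array's annotation, the first probe matches the sigma variant (NM_138764) as well as NM_138761, NM_138763 and NR_027882, and the second matches only the beta variant (NM_004324). The first probe was spotted 10 times on each array. Its unscaled signal ranged from 3768 to 3993 with a median of 3858 in control cells, from 8223 to 8643 with a median of 8393 with 10 μM, and from 4857 to 5140 with a median of 4978 with 100 μM. The 10 spots of each array thus did not overlap with those of another array, and the low dose gave the highest signal. These spots repeat 1 hybridization per condition, before scaling. How many other probes spotted 10 times were separated in this way was not counted, so the separation is not read as particular to BAX. After scaling, BAX was 2.07-fold higher with 10 μM than in control cells (log2 1.05 ± 0.02) and 1.53-fold higher with 100 μM (log2 0.61 ± 0.02). Of all genes, 3.05% had a higher fold change than BAX with 10 μM and 17.4% with 100 μM. By this probe the low dose exceeded the high dose by 0.44 ± 0.02 on the log2 scale.

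The probe of the BAX beta variant gave a signal of 189 in control cells, 273 with 10 μM and 243 with 100 μM. Its fold change was 1.38 with 10 μM (log2 0.47 ± 0.09) and 1.52 with 100 μM (log2 0.61 ± 0.10). The 2 BAX probes therefore gave the same difference with 100 μM, with a gap of 0.00 ± 0.10 on the log2 scale, but differed by 0.58 ± 0.10 with 10 μM, which is larger than the spread between spots. For the low dose over the high dose the beta probe gave −0.14 ± 0.09, within 2 SD of the spread between spots, and the median over both was 0.15. This is the opposite sign of the first probe, but without scaling the beta probe gave 0.17. No direction between the doses is therefore given for the beta probe. With the median over both probes, BAX was 0.76 higher on the log2 scale with 10 μM and no longer passed 2-fold. Under the 7 scalings tried, the first probe stayed between 1.03 and 1.11 with 10 μM and between 0.32 and 0.68 with 100 μM.

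**Figure D2:**
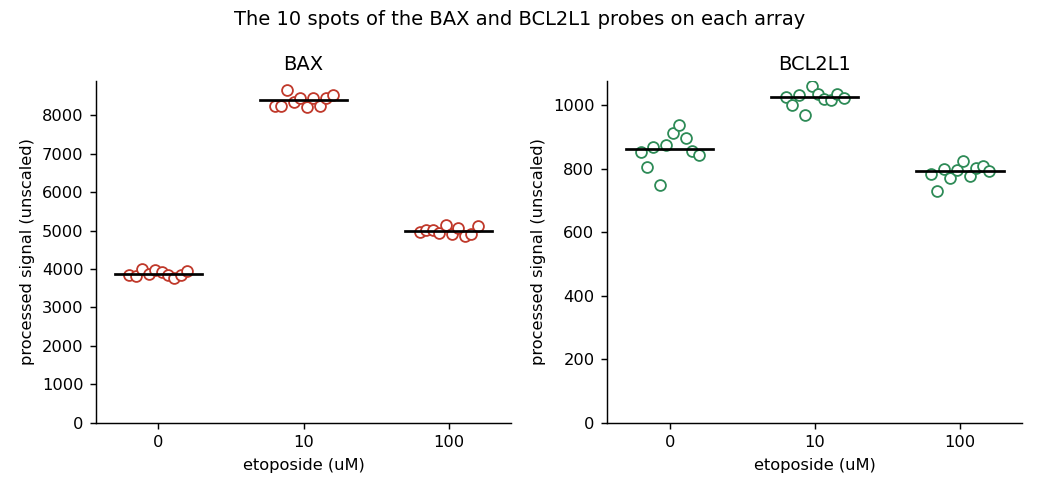
Unscaled processed signal of the 10 spots of the BAX probe (left, sigma variant and others) and of the BCL2L1 probe (right) at 0, 10 and 100 μM etoposide, with the median as a black line (vertical axes start at 0). The BAX spots at 10 μM, between 8223 and 8643, lie above all spots of the other 2 arrays. The BCL2L1 spots at 10 μM (969 to 1060) also lie above those of the other 2 arrays, which overlap with each other (732 to 938).

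The other effector, BAK1, had 1 probe, with a signal of 924 in control cells, 1617 with 10 μM and 1280 with 100 μM. Both treated arrays were higher than the control array. The fold change was 1.68 with 10 μM (log2 0.75 ± 0.07) and 1.65 with 100 μM (log2 0.72 ± 0.07), and BAK1 was higher in treated cells under all 7 scalings. Between the doses the difference was 0.03 ± 0.07 on the log2 scale, within the spread between spots, but this depended on the scaling and ranged from −0.05 to 0.34 over the 7 scalings. BAK1 had the highest log2 fold change of the 9 members with 100 μM, and 13.4% of all genes had a higher one.

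The promoters of the members were searched for the consensus of a p53 half-site, on windows of 300 bases from RefSeq (GRCh38.p14) that run from 250 bases before the start of a transcript to 50 bases after it. The table holds windows for 8 of the 10 members (BAX, BAK1, BBC3, PMAIP1, BID, BAD, BCL2L11 and BCL2L1), 14 windows in all, and does not list BIK or MCL1. An exact match, which reads alike on both strands, was found only in BAK1, from base −73 to −64, and in 6.63% of the 35116 windows of all genes. The stretch from base −120 to −21 of BAK1, on the minus strand, is shown because it is the one member window with a match, given in capitals.
BAK1, chr6:33580297-33580396: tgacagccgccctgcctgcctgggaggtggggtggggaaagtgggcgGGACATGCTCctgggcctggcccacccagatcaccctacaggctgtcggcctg
A match describes the letters in this window and not a bound site. The absence of a match in the windows of BAX, BBC3 and PMAIP1 says only that these letters do not occur there.

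Among the BH3-only genes, BBC3 gave a signal of 5507 in control cells, 8713 with 10 μM and 5004 with 100 μM. The signal was highest with 10 μM, and the other 2 arrays lay close together. BBC3 was 1.52-fold higher with 10 μM than in control cells (log2 0.60 ± 0.06), and 8.67% of all genes had a higher fold change. With 100 μM its log2 fold change was 0.11 ± 0.06, which became −0.14 without scaling, −0.18 with median scaling and −0.06 with spike-in scaling, so no direction is given. The low dose exceeded the high dose by 0.49 ± 0.06 on the log2 scale, with the same sign under all 7 scalings (0.41 to 0.80). The probe of BBC3 lies 1.74 Mb from that of BAX on chromosome 19 of hg18.

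BIK showed the largest difference between the doses. Its probe, on the plus strand of chromosome 22 of hg18, ends in the following bases, which are printed because BIK is the one member past 2-fold between the doses.
BIK, chr22:41855469-41855498: tggctctgcaattgtcaccggttaactgtg
The signal was 757 in control cells, 1206 with 10 μM and 373 with 100 μM, so the low dose lay above the control and the high dose below it. BIK was 1.53-fold higher with 10 μM than in control cells (log2 0.61 ± 0.06) and 1.71-fold lower with 100 μM (log2 −0.77 ± 0.08). The low dose exceeded the high dose 2.61-fold (log2 1.38 ± 0.07), and 2.27% of all genes had a higher ratio. These directions held under the 7 scalings, with a range of 0.59 to 0.67 with 10 μM, −1.06 to −0.71 with 100 μM and 1.31 to 1.69 between the doses. Without scaling and with median scaling, BIK passed 2-fold with 100 μM (−1.02 and −1.06). BIK had fold changes of opposite sign at the 2 doses, as did the brightest probe of BCL2L11 (log2 0.32 and −0.34). E2F1, which is no member, had them too (log2 0.89 and −2.12). The share of all genes with this pattern was not counted, and there was 1 probe for BIK.

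BID was measured by 2 probes, both annotated to the same 3 RefSeq transcripts, which agreed within the spread between spots. The brightest one gave a signal of 7181 in control cells, 7184 with 10 μM and 4203 with 100 μM. The second gave 7214, 7160 and 4147. Only the high dose stood apart, with a log2 fold change of −0.52 ± 0.07 for the first probe and −0.55 ± 0.07 for the second (1.44-fold and 1.46-fold lower). This was negative under all 7 scalings (−0.81 to −0.46), and 11.5% of all genes had a lower fold change. With 10 μM the log2 fold change was −0.06 ± 0.06, which was 0.00 without scaling.

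BCL2L11 had 3 probes, which did not follow each other. Their ends are shown because the array lists the brightest probe under another transcript (NM_138621) than the other probes, which share NM_207002. They are in the order of their brightness, and capitals mark the hexamer AATAAA, the main signal for polyadenylation.
BCL2L11 (NM_138621), chr2:111642393-111642422: gggtaattgccactttacttgtgcaatact
BCL2L11 (NM_207002), chr2:111595206-111595235: tgactctgactctcggactgagaaacgcaa
BCL2L11 (NM_207002), chr2:111598366-111598395: tatggtcattggtgattaAATAAAatgtat
The brightest probe gave a signal of 796 in control cells, 1035 with 10 μM and 528 with 100 μM. It was 1.25-fold higher with 10 μM (log2 0.32 ± 0.07) and 1.27-fold lower with 100 μM (log2 −0.34 ± 0.07), and the low dose exceeded the high dose 1.58-fold (log2 0.66 ± 0.07). The signs held under the 7 scalings. The second probe gave 269, 335 and 234 in the same order, with a log2 fold change of 0.26 ± 0.08 with 10 μM and 0.05 ± 0.09 with 100 μM. The third probe, which holds the hexamer near its end, gave 203, 194 and 180, with log2 fold changes of −0.13 ± 0.09 and 0.07 ± 0.10. The highest and lowest of the 3 probes differed by 0.44 ± 0.11 with 10 μM and by 0.42 ± 0.12 with 100 μM. With the median over the 3 probes, the log2 fold change with 100 μM changed its sign (0.05). With the scaling used here, the lower value with 100 μM thus rests on the brightest probe. This depended on the scaling. Without scaling, the dimmer probes were also lower with 100 μM than in control cells (log2 −0.20 ± 0.09 and −0.18 ± 0.10).

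BAD gave a signal of 684 in control cells, 776 with 10 μM and 611 with 100 μM. Its log2 fold change was 0.12 ± 0.07 with 10 μM and 0.09 ± 0.07 with 100 μM, both within 2 SD of the spread between spots, and the latter turned to −0.16 without scaling, −0.20 with median scaling and −0.09 with spike-in scaling. PMAIP1 could not be measured. Its 1 probe gave 5.45 in control cells, 5.88 with 10 μM and 6.10 with 100 μM, not well above background on any array, where the lowest signal so called was 19.5, 22.7 and 21.6. No fold is given, and this bounds only what this probe saw. The end of the probe is shown because it holds AATAAA (in capitals), as do the last 30 bases of 6.12% of all 34127 probes and of 2 of the 14 member probes.
PMAIP1, chr18:55721701-55721730: aatatAATAAAagaacatggggattttgta

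The guardians had small fold changes. The probe of BCL2L1, also spotted 10 times, ranged from 748 to 938 with a median of 862 in control cells, from 969 to 1060 with a median of 1025 with 10 μM, and from 732 to 824 with a median of 794 with 100 μM. Before scaling, the spots with 10 μM lay above those of the other arrays, which overlapped with each other. As for BAX, the share of other repeated probes separated in this way was not counted. After scaling, its log2 fold change was 0.19 ± 0.02 with 10 μM and 0.13 ± 0.02 with 100 μM. The latter turned to −0.12 without scaling, −0.16 with median scaling and −0.04 with spike-in scaling. MCL1 gave a signal of 1537 in control cells, 1744 with 10 μM and 1399 with 100 μM. Its log2 fold change was 0.12 ± 0.06 with 10 μM and 0.11 ± 0.07 with 100 μM, and the latter likewise turned to −0.14 without scaling, −0.18 with median scaling and −0.06 with spike-in scaling. The value of MCL1 with 10 μM lay within 2 SD of the spread between spots, as did that of BAD, whereas BCL2L1 was higher with 10 μM under all 7 scalings (0.17 to 0.25). Neither guardian had a settled direction with 100 μM.

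**Figure D3:**
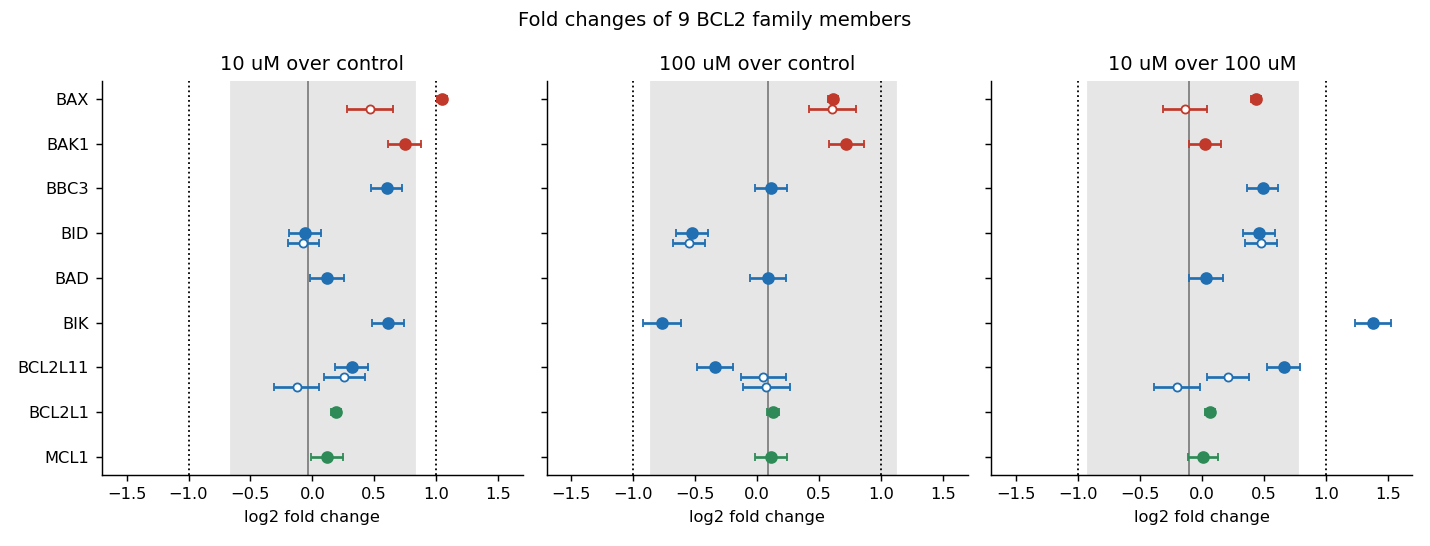
Log2 fold change of the 9 measured members at 10 μM over control, 100 μM over control and 10 μM over 100 μM, after scaling by the 75th percentile. Filled points are the brightest probe of a gene and open points its other probes, bars are 2 SD of the spread between spots, the grey band holds the central part of all genes (5th to 95th percentile) with its median as a grey line, and dotted lines mark 2-fold. BAX at 10 μM and BIK between the doses are the brightest probes beyond a dotted line, and the small values of BBC3, BAD, BCL2L1 and MCL1 at 100 μM changed sign with the scaling.

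A difference between 2 genes on the same arrays does not depend on a constant scaling factor. The log2 fold change of each pro-apoptotic member was therefore set against the mean of BCL2L1 and MCL1, a measure chosen after the values were seen. With 10 μM BAX exceeded this mean by 0.89 ± 0.04, BAK1 by 0.59 ± 0.07, BIK by 0.46 ± 0.07, BBC3 by 0.44 ± 0.07 and BCL2L11 by 0.16 ± 0.08. BAD differed from it by −0.04 ± 0.08 and BID by −0.22 ± 0.07. Both effectors, BIK and BBC3 thus lay above the mean of these 2 guardians with 10 μM. For BCL2L11 this rests on its brightest probe, since the other probes gave 0.10 ± 0.09 and −0.28 ± 0.10, and the BAX beta probe gave 0.31 ± 0.10. With 100 μM BAK1 exceeded the mean by 0.60 ± 0.08 and BAX by 0.49 ± 0.04, whereas BBC3 differed from it by −0.01 ± 0.07 and BAD by −0.04 ± 0.08. BCL2L11 lay 0.46 ± 0.08 (brightest probe, the others −0.07 ± 0.10 and −0.05 ± 0.10), BID 0.64 ± 0.07 and BIK 0.89 ± 0.09 below the mean (log2 −0.46, −0.64 and −0.89). Of the 7 pro-apoptotic members measured, only the effectors thus lay above the mean of BCL2L1 and MCL1 by more than the spread between spots with 100 μM. Among all genes, 47.1% had a higher fold change than BCL2L1 with 100 μM and 48.2% than MCL1. With 10 μM these shares were 27.0% and 33.0%. How many genes exceeded the mean by more than the spread was not counted, so lying above it is not read as particular to these members. The higher position of the effectors does not hold against every guardian. BCL2A1, which is no member and not in the mean, had a log2 fold change of 0.61 with 100 μM by its brightest probe. BAX had 0.61 and BAK1 0.72. Outside the members, the BH3-only gene BMF exceeded the mean with 100 μM by 0.16 ± 0.08 (second, dim probe 0.43 ± 0.28). The effector-like gene BOK exceeded it by 0.21 ± 0.07. These are differences in RNA signal on 1 array each, and no amount of one transcript is set against another.

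**Figure D4:**
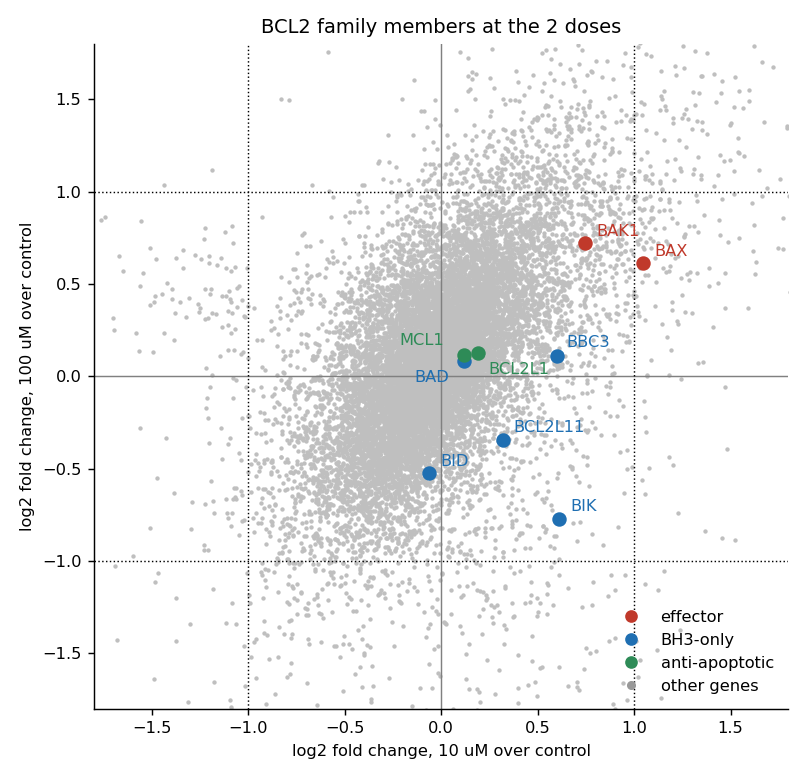
Log2 fold change at 10 μM over control (horizontal) and at 100 μM over control (vertical) for the 9 measured members, colored by role, and in grey, for 15177 other genes and members that were well above background everywhere, of which 330 lie outside the axes. Dotted lines mark 2-fold, and both axes share the control array. BAK1 and BAX lie to the upper right, BIK and BCL2L11 at the lower right, BID at the bottom near the vertical axis, and BBC3, BAD, BCL2L1 and MCL1 near the horizontal axis, where their sign at 100 μM changed with the scaling.

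**Figure D5:**
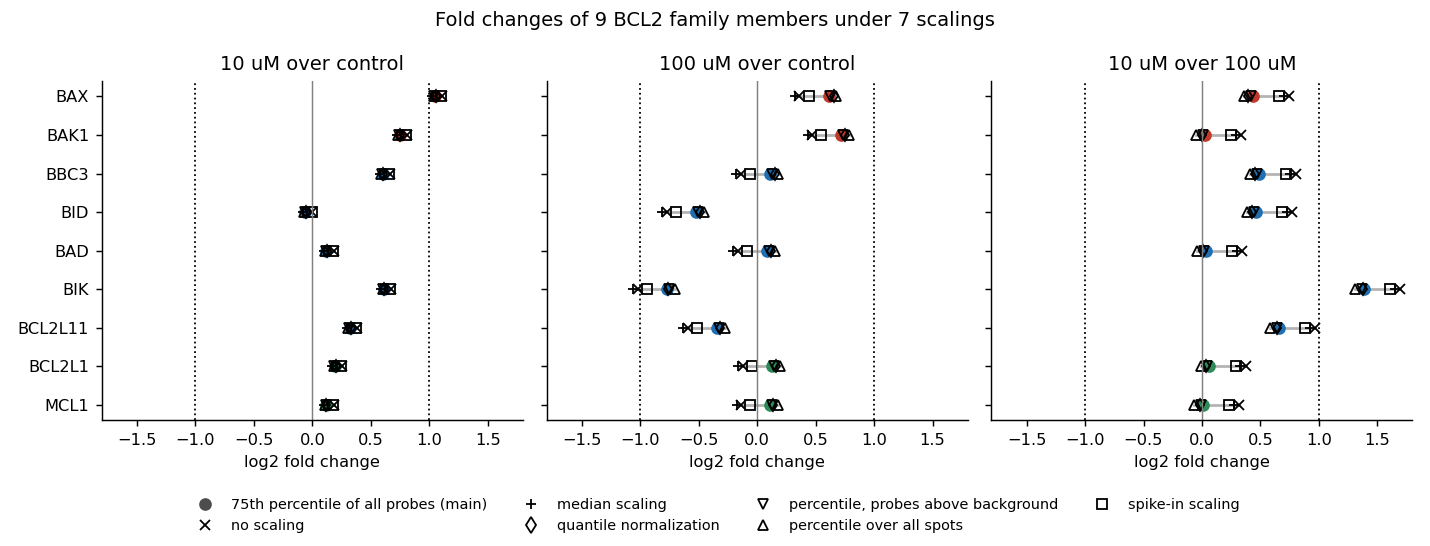
Log2 fold changes of the 9 measured members under 7 scalings of the arrays, with the scaling used in the text as a colored point and the others as black symbols (dotted lines mark 2-fold). At 10 μM over control the values of a gene lie close together. At 100 μM over control, no scaling, median scaling and spike-in scaling move all members to lower values, and BBC3, BAD, BCL2L1 and MCL1 cross 0, while BAX and BAK1 stay above it and BID, BIK and BCL2L11 below it.

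The rest of the family and of the pathway was described from lists of 51 further genes. Compared with the scaling used here, no scaling shifted all log2 fold changes with 100 μM by −0.25, median scaling by −0.29 and spike-in scaling by −0.17. Among the values below, the sign with 100 μM changed with the scaling for HRK, BMF, BCL2L2 and APAF1 and for the medians of the BH3-only, anti-apoptotic and apoptosome lists, and is not read as a direction. Among the other effector, BH3-only and anti-apoptotic genes, none passed 2-fold. BOK, an effector-like relative of BAX, had a log2 fold change of 0.25 with 10 μM and 0.33 with 100 μM. The BH3-only gene HRK had −0.09 and −0.01, and BMF had 0.17 and 0.28. Among guardians, BCL2L2 (BCL-w) had 0.02 and 0.13 and BCL2A1 had 0.30 and 0.61, whereas BCL2 and BCL2L10 were not well above background on any array. The values of BCL2A1 rest on 1 of its 2 probes, since the other was not well above background on any array. The median of the BH3-only list, members included, was 0.17 over 7 measured genes with 10 μM and −0.01 with 100 μM. That of the anti-apoptotic list was 0.16 and 0.13 over 4 genes.

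Of 6 other BCL2-like genes, 5 were measured, and BCL2L12, a divergent relative, was the one past 2-fold. Its signal was 13750 in control cells, 15172 with 10 μM and 5558 with 100 μM, a log2 fold change of −1.06 with 100 μM (−0.99 with the percentile over all spots), and the second probe gave −1.15. BCL2L15 had the highest value of this list with 10 μM (0.54) and BCL2L13 the lowest (−0.10). The second probe of BCL2L15 was not well above background on any array. Of 14 genes of the apoptosome and the caspases, which act after cytochrome c release, 1 passed 2-fold with 10 μM and none with 100 μM. It was APAF1, the scaffold of the apoptosome and a known p53 target, whose dim signal was 33.0, 80.4 and 33.7 (log2 1.23 ± 0.23 with 10 μM). DFFB, the caspase-activated DNase, had the lowest value of that list, −0.73 with 10 μM, where its second probe gave −0.23. The medians of the list were 0.04 and 0.13.

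Among 6 inhibitors of apoptosis, BIRC5 (survivin), which also serves in mitosis, had a signal of 16560 in control cells, 12226 with 10 μM and 1145 with 100 μM, or −0.50 and −3.61 on the log2 scale. BIRC7 gave dim signals of 66.6, 144 and 117, with log2 fold changes of 1.05 and 1.07, the latter between 0.78 and 1.13 over the 7 scalings. BIRC3 gave 59.1, 95.4 and 38.1, and the low dose exceeded the high dose by 1.01 (0.94 to 1.32 over the scalings). None of 10 partners and regulators of turnover of the members passed 2-fold in any comparison. FBXW7, part of a ubiquitin ligase for MCL1, had the highest value with 10 μM (0.33) and USP9X, a deubiquitinase of MCL1, the lowest (−0.36). Of 8 transcription factors and cofactors known to act on members, E2F1 gave 485, 936 and 93.7 (log2 0.89 and −2.12) and DDIT3 (CHOP) gave 937, 494 and 275 (log2 −0.98 and −1.52). Both passed 2-fold with 100 μM, and E2F1 also between the doses.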

How the data were processed

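The authors deposited, per array, Feature Extraction output (version 10.7.3.1) with a processed signal intensity per spot, after background subtraction and without scaling between arrays. The deposited table of the series held the same intensities at all 44495 spots of each array (relative tolerance 0.0001). Spots marked as outliers were left out, log2 signals were averaged per probe, and the 75th percentile over 34127 probes was subtracted. Dim signals were raised to the lowest signal well above background. Spot noise came from the 50 repeated probes nearest in signal, divided by the square root of the number of spots. With 1 array per condition no test was possible, and the precision between cultures is unknown. The members, lists and thresholds were chosen with earlier results of these data known. Genes outside the members were named if past 2-fold in any comparison, or highest or lowest in their list at the low dose, and BMF was added after its values were seen. Probe names and hg18 positions are those of the files, and the place of a probe within its transcript was not looked up. Steps were tested on simulated arrays. Alternatives were other scalings, normexp (offset 50), the series table, other filters, other probe rules and folds of 1.5 and 3. Python 3.11.15, pandas 2.3.3, numpy 2.4.6, R 4.3.3 and limma 3.58.1 were used.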

Additional observations from a re-analysis of the deposited data

How the results depend on the processing

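The number of members past 2-fold at the low dose over control was 1 (BAX) under 11 of 15 alternatives and 0 with the median over the probes of a gene or when every probe had to pass, because the 2 BAX probes differ, and it was 4 at a limit of 1.5-fold and 0 at 3-fold. At the high dose over control it was 0, and 1 without scaling and with median scaling (BIK in both), and 3 at 1.5-fold. For the low dose over the high dose it was 1 (BIK), 2 at 1.5-fold and 0 at 3-fold. When the fold limits were combined with the other scalings, an alternative added after the values were seen, the count at 1.5-fold was 3 with median scaling and 4 otherwise for the low dose over control, and 2 with spike-in scaling and 3 otherwise for the high dose over control. For the low dose over the high dose it was 5 without scaling, with median scaling and with spike-in scaling and 2 otherwise, and 1 (BIK) passed 3-fold under those 3 scalings. All other counts at 3-fold were 0. Of 324 single values of members under alternatives, 234 stayed within the spot noise and 90 moved by more. Part of the 234 could not move. The series table held the same intensities, the filters left the measured members unchanged, and a median over probes changes nothing for a gene with 1 probe. Only BAX at the low dose and BIK between the doses were past 2-fold, and neither changed its sign. At the high dose over control, BBC3, BAD, BCL2L1 and MCL1 did change sign with the scaling, and BCL2L11 with the median over its probes (0.05). BID changed sign at the low dose over control without scaling (−0.06 to 0.00). Between the doses, BAD, BAK1, BCL2L1 and MCL1 changed sign under some alternatives. No paired analysis was possible because there was only 1 array for a condition, and no array could be left out. Depth is not defined for arrays: the number of arrays limits the precision, and PMAIP1 was below what its probe could measure.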
